A study of Rattus norvegicus with 18 samples.

Results

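The circadian clock genes Bmal1, Npas2, Clock, Per2, Dbp, Tef, Nr1d1, Nr1d2, Bhlhe40 and Nfil3 were followed in kidneys of 2 rat strains. Members were all probe sets whose platform annotation gave exactly 1 gene symbol and that symbol was one of these 10 names. A probe set is a group of short probes for 1 transcript. 14 of the 26202 probe sets other than controls met this rule, and they covered 8 of the 10 genes. Clock and Nfil3 had no such probe set and are not analysed here. The Dahl salt-sensitive strain, called Dahl S, is an inbred rat that becomes hypertensive on a salty diet. The congenic strain has the same background with a piece of chromosome 9 taken from a salt-resistant rat, and its labels describe that piece as carrying a blood pressure locus. Each strain was represented by 3 kidney samples of total RNA, and each sample was run on 3 array types, called A, B and C. The labels used here state no age, sex, diet, lighting or time of day of collection. Nothing in the labels says that the 3 samples of a strain were separate animals, so p-values here reflect sample-to-sample spread that may be technical. In whole kidney RNA, fewer cells of a type and less RNA per cell cannot be told apart.

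In the clock, the transcription factor Bmal1 pairs with Clock or with its relative Npas2, and the pair binds E-box sequences in target genes. Among those targets are Per2, which blocks the pair as part of the period and cryptochrome complex, and Bhlhe40, a repressor that competes for E-boxes. Nr1d1 and Nr1d2, the REV-ERB nuclear receptors, repress Bmal1 through ROR elements. Dbp and Tef activate D-box sequences, and Nfil3 represses them. In rodent kidney these genes cycle over the day, and Bmal1 peaks at about the opposite phase to Nr1d1 and Dbp. Kidney clock output includes genes of sodium and water transport.

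The arrays measured transcripts and not binding, and the promoters are shown because these motifs are the links between the members. RefSeq promoter windows of build GRCr8, running from 250 bases before to 50 bases after an annotated start site, were found for 10 of 10 genes, with 12 windows in all. Both strands were searched for the E-box CACGTG, the D-boxes TTATGTAA and TTACGTAA, and the ROR element consensus. No motif searched overlapped another in these windows. Of the 12 windows 5 held a match, 1 match each. Capitals mark the match in the 5 stretches below, which run 5′ to 3′ on the strand of the gene.
Bmal1, ROR element, chr1:176766268-176766358, plus strand: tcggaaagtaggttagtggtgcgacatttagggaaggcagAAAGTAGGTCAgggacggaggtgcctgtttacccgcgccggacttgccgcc
Per2, D-box, chr9:99497138-99497225, minus strand: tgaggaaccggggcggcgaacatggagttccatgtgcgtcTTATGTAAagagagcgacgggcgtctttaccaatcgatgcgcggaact
Tef, E-box, chr7:115206589-115206674, plus strand: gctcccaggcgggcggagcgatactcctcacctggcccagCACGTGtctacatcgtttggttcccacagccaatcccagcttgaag
Nr1d1, E-box, chr10:84229600-84229685, minus strand: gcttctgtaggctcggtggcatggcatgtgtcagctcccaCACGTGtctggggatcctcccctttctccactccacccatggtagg
Bhlhe40, E-box, chr4:143174200-143174275, plus strand: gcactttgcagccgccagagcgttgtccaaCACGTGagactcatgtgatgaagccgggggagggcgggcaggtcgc

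The ROR element of Bmal1 began 20 bases before the start site, whereas the other 4 matches began 192 (Per2), 198 (Tef), 191 (Nr1d1) and 220 (Bhlhe40) bases before it. The Nr1d1 match was in the second of its 2 annotated windows. Of all 33469 windows of the same length, 6.42% held an E-box, 1.01% a D-box and 0.356% a ROR element. The windows of Npas2, Clock, Dbp, Nr1d2 and Nfil3 held none of these letters, which says nothing about binding elsewhere.

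**Figure D1:**
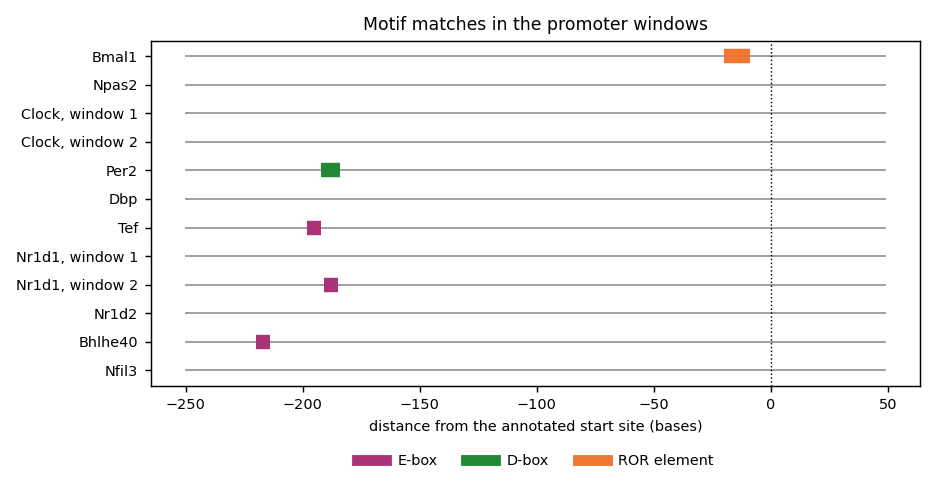
Motif matches in the 12 promoter windows of the 10 clock genes, drawn by distance in bases from the annotated start site (dotted line). Coloured blocks are E-box, D-box and ROR element matches; the Bmal1 match lies next to the start site and the other 4 lie 191 to 220 bases before it.

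The comparison asks whether kidney clock transcripts differ between the strains. No clock gene passed limma's test against the spread between samples. Signals are in the arrays' linear units, and differences are log2 values, congenic minus Dahl S, with standard errors and p-values from limma fitted on all tested probe sets. Probe sets with a mean below the 40th percentile of their type (a filter level of 21.2 signal units on type A, 39.3 on B and 37.7 on C) were not tested. Of the 14 clock probe sets 10 were tested, for 7 genes, and 4 were not: 1 each for Bmal1, Per2, Dbp and Nr1d2. At an adjusted p of 0.05 limma called 0 of the 10, against 0 of 15721 (0%) over all tested probe sets. An unadjusted p under 0.05 was reached by 0 of the 10, against 2.49% of all tested. In 0 of the 10 were the 3 congenic values clear of the 3 Dahl S values, against 7.08% of all tested. The difference was above 0 in 7 of the 10 and below 0 in 3, with a median of +0.30, where 49.5% of all tested probe sets were above 0 and their median was -0.003. These counts include Npas2 and Nr1d2, which each had a strain mean below the filter level. Each adjusted p in limma was 0.9997, so single genes are given below with their standard errors and 95% intervals.

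**Figure D2:**
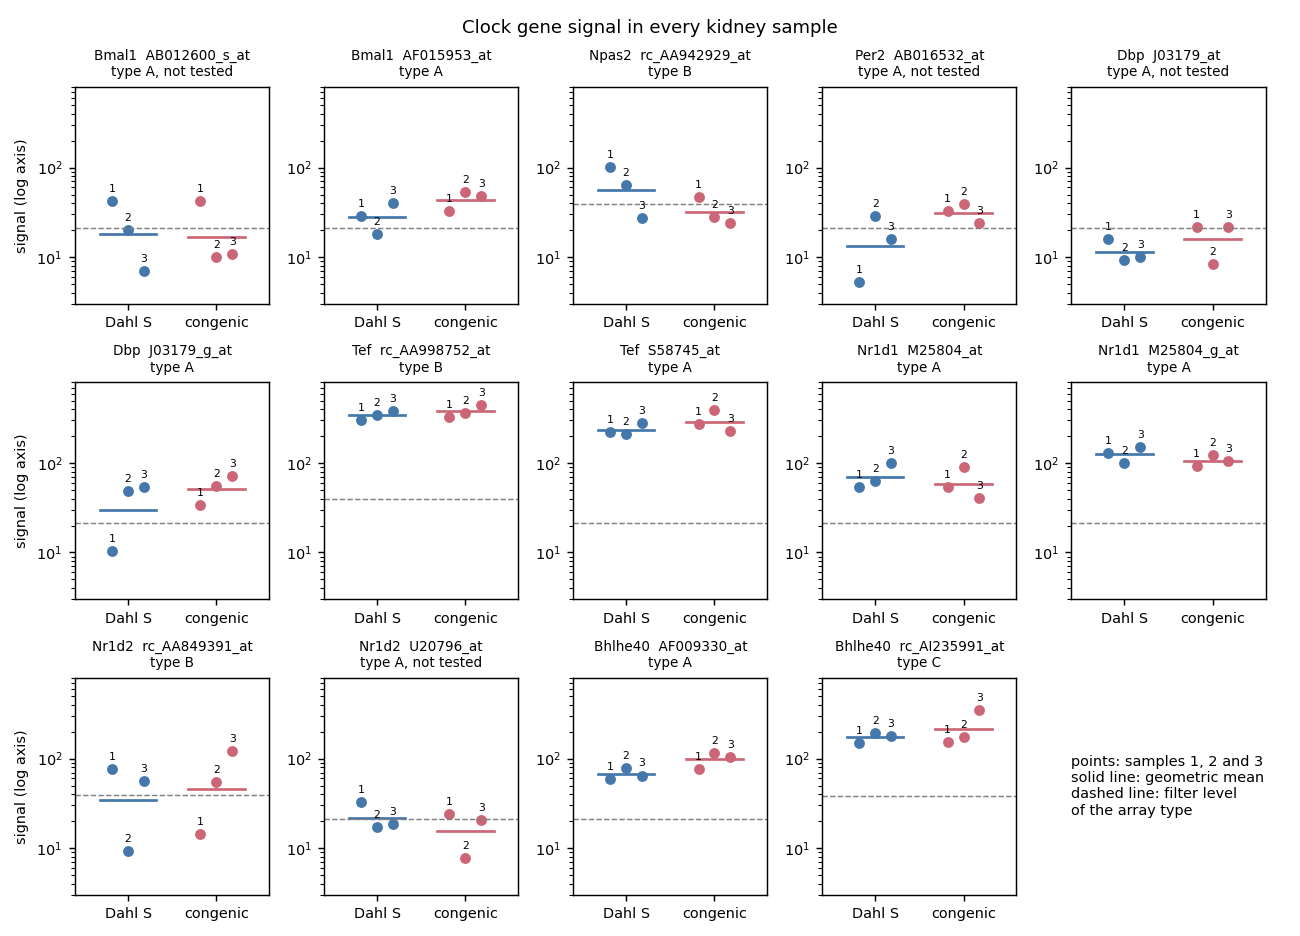
Signal of each of the 14 clock gene probe sets in every kidney sample, on a log axis in linear signal units, for Dahl S (blue) and congenic (red) samples numbered 1 to 3. Solid lines are geometric means and dashed lines the filter level of the array type; the strains overlap in all 10 tested panels.

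Bmal1 is the partner that every activating pair of the clock shares, and its gene lies on chromosome 1. Its tested probe set (AF015953_at, type A) read 28.7, 18.2 and 40.6 in Dahl S kidneys and 32.4, 53.1 and 48.0 in congenic kidneys. Congenic samples 2 and 3 were the highest of the 6, congenic sample 1 lay inside the Dahl S range, and Dahl S sample 2 was below the filter level. The geometric mean was 1.57-fold higher in the congenic strain, a log2 difference of +0.65 (SE 0.45, n = 3 per strain). The 95% interval ran from 0.763-fold to 3.24-fold. Without Dahl S sample 2 the difference was +0.35.

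The other Bmal1 probe set (AB012600_s_at, type A) was not tested. It read 41.8, 19.8 and 6.9 in Dahl S and 42.3, 10 and 10.9 in congenic samples. Here the samples numbered 1 were the 2 highest and the other 4 were below the filter level, an order that the first probe set did not show.

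Npas2, which can take the place of Clock beside Bmal1, lies on chromosome 9, the chromosome of the introgressed piece. Where that piece starts and ends is not given in the labels used here. Its only probe set (rc_AA942929_at, type B) read 101.7, 63.2 and 27.6 in Dahl S and 47.4, 27.7 and 24.1 in congenic samples. Dahl S samples 1 and 2 were the highest, Dahl S sample 3 lay among the congenic values, and 3 of the 6 samples were below the filter level. The congenic geometric mean of 31.6 was 1.78-fold lower than the Dahl S mean of 56.2 (log2 difference -0.83, SE 0.67). It lay below the filter level of 39.3, so the probe set was tested only through its Dahl S mean. The interval, 0.199-fold to 1.6-fold, holds both a large decrease and an increase. The difference was -0.40 when Dahl S sample 1 was left out and -1.34 when Dahl S sample 3 was.

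Per2, the period protein that closes the negative loop, also lies on chromosome 9. Its 1 probe set (AB016532_at, type A) fell below the filter and was not tested. It read 5.3, 28.8 and 15.8 in Dahl S and 32.3, 39.2 and 23.7 in congenic samples. The congenic geometric mean of 31.1 was above the Dahl S mean of 13.4, but Dahl S sample 2 lay inside the congenic range, and Dahl S sample 1 was near the floor of 3.1 applied to type A. No size is claimed for this difference.

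Bhlhe40, the repressor also called Dec1, lies on chromosome 4 and had the smallest unadjusted limma p of the clock genes. Its type A probe set (AF009330_at) read 59.4, 78.1 and 64.8 in Dahl S and 77.3, 115.5 and 105.4 in congenic samples. Every sample was above the filter level, and the strains overlapped only through Dahl S sample 2 and congenic sample 1, which read nearly alike. The congenic mean was 1.46-fold higher (log2 difference +0.55, SE 0.27), with an interval from 0.949-fold to 2.25-fold. Without congenic sample 1, the congenic sample that overlapped Dahl S, the difference was +0.72. Its unadjusted limma p then fell under 0.05, as did that of 3.82% of all tested probe sets in the same fit. Leaving out any other single sample gave +0.43 to +0.66, with an unadjusted limma p from 0.0839 to 0.181.

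The type C probe set of Bhlhe40 (rc_AI235991_at) read 148.7, 195.4 and 177.3 in Dahl S and 155.4, 175.5 and 350.6 in congenic samples. Only congenic sample 3 stood above the Dahl S range. The difference was +0.30 (SE 0.31), and without congenic sample 3 it turned to -0.065.

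Nr1d1, the REV-ERB alpha receptor encoded on chromosome 10, was measured by 2 probe sets made from the same transcript. The first (M25804_g_at, type A) read 129.4, 100.7 and 149.8 in Dahl S and 92.1, 124.7 and 104.9 in congenic samples. All values were above the filter level and the ranges overlapped widely. The log2 difference was -0.23 (SE 0.24), and the interval of 0.577-fold to 1.26-fold is one of the narrower ones among the clock genes. The second (M25804_at) read 54.1, 62.7 and 100.1 against 53.4, 89.5 and 41.2, a difference of -0.26 (SE 0.39) that shrank to -0.002 when Dahl S sample 3 was left out and to -0.01 for congenic sample 3. Nr1d1 and Npas2 were the tested genes with lower congenic means.

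Nr1d2, the REV-ERB beta receptor on chromosome 15, varied most within the strains among the tested clock genes. Its type B probe set (rc_AA849391_at) read 76.8, 9.2 and 56.0 in Dahl S and 14.3, 55.1 and 122.2 in congenic samples. One low sample in each strain, Dahl S sample 2 and congenic sample 1, lay below the filter level. The Dahl S geometric mean of 34.1 was also below that level of 39.3. The probe set was therefore tested only through its congenic mean of 45.8. The highest reading was 8.35 times the lowest within Dahl S and 8.55 times within the congenic strain. The difference was +0.43 (SE 1.02), with an interval from 0.277-fold to 6.53-fold, and leaving out Dahl S sample 2 turned it to -0.52, congenic sample 3 to -0.28. The type A probe set (U20796_at), not tested, read 32.5, 17.4 and 18.7 in Dahl S and 24.1, 7.7 and 20.5 in congenic samples, so 4 of its 6 values were below the filter level.

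Dbp, an activator of D-box genes on chromosome 1, is among the most strongly cycling transcripts of many tissues. Its tested probe set (J03179_g_at, type A) read 10.4, 48.2 and 53.7 in Dahl S and 34.2, 55.6 and 72.1 in congenic samples. Dahl S sample 1 was far below the rest and was the only sample under the filter level. The congenic mean was 1.72-fold higher (log2 difference +0.78, SE 0.67; interval 0.596-fold to 4.97-fold), but without Dahl S sample 1 the difference was +0.02. The other Dbp probe set (J03179_at), made from the same transcript and not tested, read 15.9, 9.2 and 9.9 in Dahl S and 21.7, 8.3 and 21.6 in congenic samples. In that probe set Dahl S sample 1 was the highest Dahl S value, the reverse of the first.

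Tef, the other D-box activator among the members, lies on chromosome 7 and had its 2 probe sets on 2 array types. The type B probe set (rc_AA998752_at) read 306.3, 344.3 and 383.0 in Dahl S and 327.2, 366.1 and 451.7 in congenic samples. The difference was +0.14 (SE 0.21), and its interval, 0.794-fold to 1.53-fold, was the narrowest of the clock genes. The type A probe set (S58745_at) read 222.1, 209.2 and 281.7 in Dahl S and 276.7, 392.3 and 228.0 in congenic samples (+0.31, SE 0.24). Every Tef value lay far above the filter level, and the 2 probe sets put different congenic samples highest, sample 3 on type B and sample 2 on type A.

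**Figure D3:**
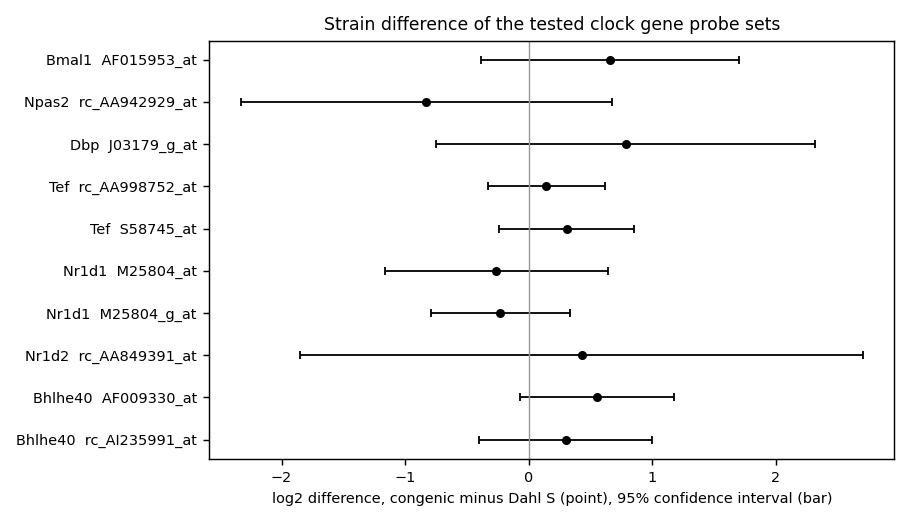
Log2 difference of each tested clock gene probe set, congenic minus Dahl S, with its 95% confidence interval from limma (n = 3 per strain). All 10 intervals include 0; those of Tef and of Nr1d1 M25804_g_at are narrow and those of Nr1d2, Npas2 and Dbp are wide.

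The intervals reached 0.47 to 2.28 log2 units to either side over the 10 probe sets, against a median of 0.68 over all tested. The spread within strains was set beside that of all tested probe sets of the same array type in the same decile of mean signal. Of the 10 clock probe sets 3 had an SD above the upper quartile of their decile, 6 lay within the quartiles and 1 lay below. Nr1d2 had an SD of 1.61 log2 units where the median of its decile was 0.85. Dbp had 1.01 against 0.66, and Bhlhe40 on type C had 0.47 against 0.28. Bmal1 (0.49 against 0.66) and Npas2 (0.77 against 0.85) varied less than the median probe set of that brightness, and Tef on type B (0.20 against 0.29) was the one below the lower quartile.

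**Figure D4:**
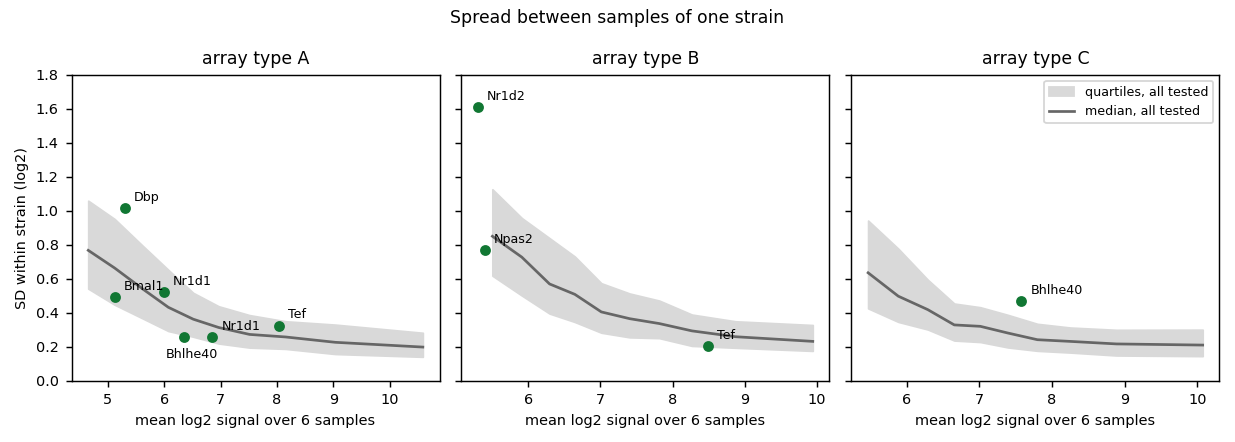
SD of log2 signal within strains (pooled over both strains, 3 samples each) against mean log2 signal for the 10 tested clock gene probe sets (green points), 1 panel per array type. The grey band and line are the quartiles and median of all tested probe sets by decile of signal; Nr1d2, Dbp and the type C probe set of Bhlhe40 lie above the band.

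Probe sets of the same clock gene did not always rank the samples alike. Over the 6 samples Pearson's r was 0.68 for the Nr1d1 probe sets, 0.57 for those of Bhlhe40 and 0.07 for those of Tef. For the 3 genes in which 1 of the probe sets was below the filter, r was -0.56 (Bmal1), -0.23 (Dbp) and 0.01 (Nr1d2). Among all 1702 genes with exactly 2 tested probe sets the median r was 0.12, with quartiles of -0.28 and 0.48. These values describe how far a single probe set can be read, and no p is attached to them.

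The genes were then compared over the 6 samples through the brightest tested probe set of each, with arrays of different types joined by the sample's tag. Of 21 pairs of the 7 genes, 12 had a positive Pearson's r. No pair passed after adjustment over the 21 (exact permutation, two-sided, 720 orders). The smallest adjusted exact p was 0.185 for Pearson's r and 0.175 for Spearman's rho. Before adjustment 3 pairs had an exact p under 0.05 for Pearson's r. Npas2 ran against Dbp, with r = -0.87 (exact p = 0.0194) and Spearman's rho = -0.89 (exact p = 0.0333). Without Dahl S samples 1 and 2, the farthest from the Npas2 median, r was -0.98. Npas2 also ran against Tef, with r = -0.85 (exact p = 0.0264), rho = -0.94 (exact p = 0.0167) and r = -0.86 without the same samples. In both pairs the Npas2 probe set had a congenic mean below the filter level. Values with samples left out, here and below, drop the 2 farthest from the median of only 1 gene of the pair. That gene was Npas2, Tef, Dbp or Bmal1, and extremes of the other gene stay in. They rest on the few samples left, have no p and add no support.

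Tef ran with Bhlhe40 (r = 0.90, exact p = 0.0167; rho = 0.83, exact p = 0.0583), but without congenic sample 3 and Dahl S sample 1 r was 0.38, so this relation rests on those samples. Tef and Dbp, which belong to the same family, had r = 0.81 (exact p = 0.0694) and rho = 0.94 (exact p = 0.0167), and r = 0.97 without the samples numbered 1. All of these have adjusted exact p-values between 0.175 and 0.306. The Tef values depend on the probe set, an alternative chosen after seeing the data. Through the type A probe set of Tef, r was -0.53 with Npas2, 0.30 with Dbp and -0.27 with the type C probe set of Bhlhe40. With the type A probe set of Bhlhe40, r was 0.60 for Tef on type B and 0.48 for Tef on type A.

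Bmal1 and Npas2, partners in the activating pair, had opposite patterns without passing (r = -0.77, exact p = 0.0694, adjusted p = 0.292, rho = -0.77, exact p = 0.103). Here too the Npas2 probe set had a congenic mean below its filter level, and Bmal1 in Dahl S sample 2 was below its own level. Without Dahl S sample 2 and congenic sample 2 r was -0.94. Bmal1 and its repressor Nr1d1 had r = 0.35 (exact p = 0.497, adjusted p = 0.691; rho = 0.26, exact p = 0.658). Without Dahl S sample 2 and congenic sample 2 that pair had r = 0.005, and through the other Nr1d1 probe set r was 0.19. After each strain's mean was subtracted r was 0.97, a description without a p and the largest of the 21 pairs. Bmal1 with Nr1d2, the other REV-ERB receptor, had r = 0.73 (exact p = 0.104, adjusted p = 0.365), and 0.82 after that subtraction. The Nr1d2 probe set had a Dahl S mean below the filter level. The same measure gave -0.66 for Bmal1 with Npas2, -0.84 for Npas2 with Dbp and -0.83 for Npas2 with Tef. It gave 0.77 for Dbp with Tef and 0.88 for Tef with Bhlhe40. The samples numbered 1 stood apart from the others on these arrays in their weak signals. Outside that split 4 samples remain, too few for a test, and the Dbp and Tef value without the samples numbered 1 is the only one of these computed over them.

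**Figure D5:**
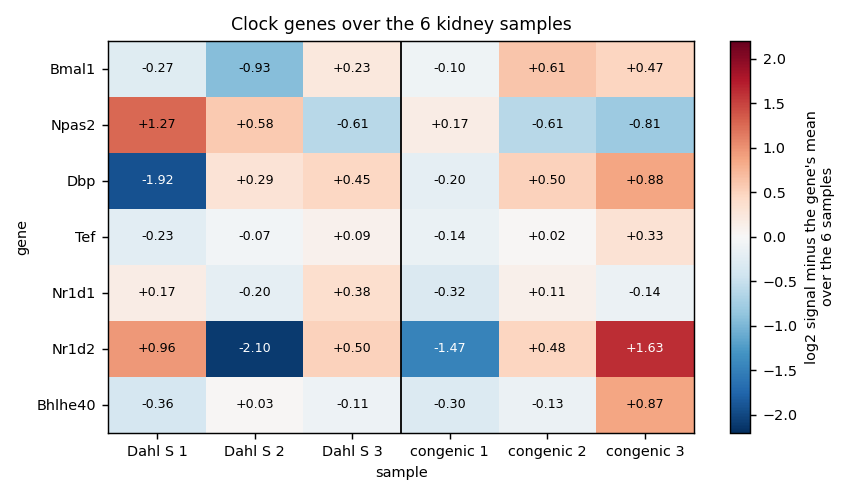
Log2 signal of the brightest tested probe set of 7 clock genes in each of the 6 kidney samples, minus the gene's mean over the samples. Dahl S samples 1 and 2 are high for Npas2, Dahl S sample 1 is low for Dbp (-1.92), and Nr1d2 is low in Dahl S sample 2 (-2.10) and congenic sample 1 (-1.47).

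Genes with the most similar pattern were taken from 8161 other genes, each represented by its brightest tested probe set. For Bmal1 they were Ddx17, an RNA helicase (r = 0.995), Atosb (r = 0.994) and Brms1l, a subunit of a histone deacetylase complex (r = 0.986), and 66 genes had r above 0.9. For Dbp they were Ccndbp1, a cyclin D binding protein (r = 0.993), Pom121, a nuclear pore protein (r = 0.987), and Tspan14, a tetraspanin (r = 0.987), with 175 genes above 0.9. These are descriptions over 6 samples, without a test. For Dbp the pattern held 1 far low sample, Dahl S sample 1, at -1.92 log2 units from the gene's mean. How many unrelated genes would exceed 0.9 over so few samples was not computed, so the counts do not show a shared pattern.

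Other clock components gave no call either. Of 48 listed genes 37 were on the arrays and 32 were tested, of which 16 were above 0 and 16 below, with a median log2 difference of +0.005 (over all 8168 genes, 48.9% above 0 and a median of -0.006). At an adjusted p of 0.05 limma called 0 of the 32 (0% of all genes), and an unadjusted p under 0.05 was reached by 0 of the 32, against 2.35% of all genes. The smallest p belonged to Csnk1e, a kinase that phosphorylates the period proteins. It read 89.8, 122.4 and 143.0 in Dahl S and 109.5, 58.9 and 79.9 in congenic samples (-0.54, SE 0.38), with congenic sample 1 inside the Dahl S range. Ppara, a nuclear receptor of lipid metabolism under clock control, came next (+0.62, SE 0.47), with 27.8 to 81.6 in congenic against 28.1 to 40.9 in Dahl S samples.

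Listed clock-linked and glucocorticoid-linked output genes of the kidney were more often above 0 than below it, and none was called by limma. Of 40 listed genes 33 were on the arrays and 27 were tested; 21 were above 0 and 6 below, with a median of +0.14, beside 48.9% of all genes above 0. An unadjusted limma p under 0.05 was reached by 0 of the 27, against 2.35% of all genes. The tubule markers, which share Aqp2 with this list, were above 0 in 7 of 8 with a median of +0.10, and their part in the list's counts was not tested. The strains did not overlap in 3 of the 27, Pck1, Aqp2 and Insig2, against 7.62% of all genes; Aqp2 and Insig2 are named after their values were seen. Pck1, the gluconeogenic carboxykinase, read 6426.9, 7021.1 and 6599.3 in Dahl S and 7247.8, 8836.8 and 8947.1 in congenic samples (+0.31, SE 0.16). Sgk1, the kinase that raises sodium channel activity, read 297.1, 278.3 and 238.8 in Dahl S and 439.2, 241.7 and 573.3 in congenic samples (+0.54, SE 0.30), with congenic sample 2 inside the Dahl S range. Aqp2, the vasopressin-regulated water channel (+0.18, SE 0.15), and Insig2, a regulator of sterol synthesis (+0.41, SE 0.36), were the others.

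All 8 tubule markers were tested, and 7 of them, among them Umod and Aqp2, were above the filter level in every sample; the eighth, the cotransporter Slc12a1, read 11.4 in congenic sample 2. Of the tubule markers 7 were above 0, and the strains did not overlap in 2 of the 8, Kcnj1 and Aqp2. In the other marker lists the tested genes above 0 were 1 of 1 glomerular, 1 of 1 adrenal, 1 of 1 fat, 0 of 4 blood, 1 of 4 leukocyte and 2 of 2 liver genes. Dahl S sample 3 read highest of all samples in each of the 4 blood genes, and the other Dahl S samples lay inside the congenic range. For Hbb it read 8393.5, against 2249.1 and 2377 in the other Dahl S samples and 1781.3 to 3759.3 in congenic samples. For the glomerular gene Podxl the same sample read 55.6, against 266.1 and 277.1 in the other Dahl S samples. The part of this sample's composition in the clock values was not tested. The leukocyte gene Coro1a (-0.81, SE 0.33) was the only marker gene with an unadjusted p under 0.05, against 2.35% of all genes. The strains did not overlap in 2 of 4 leukocyte genes (Coro1a and Cd68) and in 1 of 1 glomerular gene (Podxl), against 7.62% of all genes. Marker genes named here were picked after their values were seen. Weak signals also depended on the sample number. The lower quartile of an array was 11.4 to 11.8 in the samples numbered 1 against 6.7 to 9.3 in the others on type A, 24.2 to 24.6 against 13.9 to 20.4 on type B, and 22.5 to 23.8 against 13.2 to 14.1 on type C. The part of these shifts in the dim clock probe sets was not tested.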

How the data were processed

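Total RNA of 3 Dahl S and 3 congenic kidney samples was measured on 3 array types. The authors' deposited intensities, 1 per probe set, are linear and, from the values, scaled to an equal mean after trimming 2% at each end; no summarising software is named in the labels used here. Values below the 10th percentile of a type (3.1, 6.8 and 4.9) were raised to it and log2 was taken without further scaling. Probe sets with a mean under the 40th percentile were not tested. Strains were compared in limma 3.58.1 (R 4.3.3, trended eBayes), 1 fit per type, with Benjamini-Hochberg adjustment over all 15721 tested probe sets. The fit was checked on simulated data. Of the probe sets, 18178 had 1 gene symbol in the platform annotation, 391 had several and 7633 had none. A gene was represented by its brightest tested probe set. Named genes were every member, the 2 smallest p-values of each list of other clock components and kidney outputs, and the 3 most correlated genes for Bmal1 and Dbp; other genes were named after their values were seen. Marker lists covered tubule, glomerulus, adrenal, fat, blood, leukocytes and liver. Members and lists were chosen with earlier results of these data known. The number of arrays limits precision. Figures used matplotlib 3.10.9. Alternatives are given in the closing section.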

Additional observations from a re-analysis of the deposited data

How the results depend on the processing

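The count of called probe sets stayed at 0 under 18 alternatives: other floors, filters and scalings, eBayes settings, adjustment within each type, an adjusted p of 0.1, each sample left out, both samples numbered 1 left out, and the replicate block. Probe sets with an unadjusted limma p under 0.05 numbered 391, against 798 with no filter, 259 with a filter at the 60th percentile, 600 without congenic sample 1 and 819 with the replicate block. The replicate block thus took the share of all tested from 2.49% to 5.21%. With it the smallest unadjusted limma p of the 10 clock probe sets was 0.0745. The sample numbers were not taken as pairs: same-numbered samples correlated at 0.45, 0.08 and 0.18 over all types, although every number was above 0.1 on type B (0.36, 0.16 and 0.14) and type C (0.49, 0.18 and 0.30) and only number 2 on type A was not (-0.09), and 4 of 6 samples correlated best with their own number. Of the 10 tested clock probe sets 8 kept their direction under every alternative run. The Nr1d2 difference ranged from -0.52 to +1.27 with 1 sample left out and was -0.28 without congenic sample 3 and +1.85 without both samples numbered 1. The type C Bhlhe40 difference ranged from -0.065 to +0.52, the lowest without congenic sample 3. The type A Bhlhe40 probe set was the only one of the 10 to reach an unadjusted limma p under 0.05. It did so without congenic sample 1 (+0.72), where 3.82% of all tested probe sets did, and under no other alternative. The correlation of Tef with Bhlhe40 was 0.90 through the brightest probe sets and -0.27 with the type A probe set of Tef in its place. With the type A probe set of Bhlhe40 it kept its sign, at 0.60 for Tef on type B and 0.48 for Tef on type A. The cause was not tested. Under quantile normalization Nr1d2, and under the 60th percentile filter 5 of the 10, were below the filter. Dim signal limits Bmal1, Npas2, Per2, Dbp and Nr1d2.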
